A study of Mus musculus with 9 samples.

Results

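The growth hormone pathway of the liver was followed through 10 genes, namely the receptor Ghr, its kinase Jak2, the transcription factors Stat5a and Stat5b, the feedback inhibitors Socs2 and Cish, the endocrine products Igf1 and Igfals, and the sex-biased transcription factors Bcl6 and Cux2. They were taken from the gene table by symbol, and each had 1 entry with known transcripts among 26345 such named entries. Another 6 entries carrying a member's symbol held assembled transcripts only and are described separately at the end. The table covers 9 liver libraries in 3 groups of 3. Pair-fed mice (PF) received an isocaloric control liquid diet, alcohol-fed mice (AF) a Lieber-DeCarli liquid diet with alcohol, and the third group the alcohol diet together with an agent labelled only MNA, given at 50 mg/kg into the abdominal cavity. Feeding lasted 5 weeks in every group, and the labelled age was 8 weeks. The methods describe male C57BL/6J mice killed after a fast, for PF and AF only. The strain label was C57BL/6 in PF and AF and read C57BL/7, C57BL/8 and C57BL/9 in the 3 MNA libraries, and the labels give no vehicle injection for PF or AF. A strain or an injection effect therefore cannot be told apart from MNA.

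Growth hormone from the pituitary binds its receptor on hepatocytes and activates JAK2, which phosphorylates STAT5A and STAT5B. STAT5 then switches on genes such as Igf1, Igfals, Socs2 and Cish, and the SOCS proteins feed back to damp the signal. In rodents the pattern of hormone release differs between the sexes, being pulsatile in males and near-continuous in females, and many liver genes are therefore male-biased or female-biased. BCL6 is the more abundant in male liver and CUX2 in female liver, where CUX2 represses male-biased genes and activates female-biased ones.

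Levels are in FPKM, that is fragments scaled to the length of the transcript and to the fragments of the library, and total reads ranged from 57800660 to 82179248 per library. A gene counted as changed when limma gave an unadjusted p under 0.05 and the group means differed by more than 2-fold, which is the threshold of the study's methods. Nothing in the labels states separate animals beyond the replicate numbers, so that p-values measure the spread between these libraries. AF replicate 3 and AF with MNA replicate 1 stood apart by their signal in transcripts within introns, at 9433 and 8934 summed FPKM against 2477 to 4937 in the other libraries. All 5 hepatocyte markers were found, and their sum ran from 14812 to 20218 FPKM in PF, 13770 to 20677 in AF and 18249 to 20682 in AF with MNA. The 6 markers of sinusoidal endothelium summed to 26.9 to 33.8 FPKM in PF, 35.7 to 47.8 in AF and 41.1 to 45.2 in AF with MNA. The corresponding sums were 64.5 to 78.3, 51.0 to 93.2 and 65.8 to 85.3 FPKM for 6 Kupffer cell and macrophage markers, 29.0 to 34.2, 29.1 to 40.1 and 30.4 to 45.2 FPKM for 6 stellate cell markers, and 3.27 to 4.31, 4.86 to 9.12 and 3.34 to 6.33 FPKM for 5 cholangiocyte markers, of which Krt7 and Epcam stayed under 0.5 FPKM. Lymphocyte markers summed to at most 1.31 FPKM, with Cd3e, Cd8a, Cd79a and Ms4a1 under 0.5 throughout, and neutrophil markers to at most 2.03 FPKM, with S100a9 and Ly6g under 0.5 throughout. The 2 erythroid markers found summed to 164 to 409 FPKM across the 9 libraries. The part of these other cells in the results was not tested.

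In PF the members ranked from Igf1 at 36.6 FPKM through Ghr at 14.6, Bcl6 at 7.33, Stat5b at 5.91, Jak2 at 3.63, Cish at 2.43, Stat5a at 2.39, Igfals at 1.67 and Socs2 at 0.753 to Cux2 at 0.14 FPKM. Libraries of neighbouring genes did not overlap at 3 steps of this order, between Igf1 and Ghr, between Stat5b and Jak2 and between Socs2 and Cux2, and the other neighbours overlapped. In AF, Igf1 at 35.8 and Ghr at 7.14 FPKM still led, followed closely by Igfals at 6.92, while Cux2 at 1.36 stood above Cish at 1.03 and Socs2 at 0.867 FPKM. Only Igf1 and Ghr were neighbours without overlap in AF, and the places of Igfals and Cux2 rested on 1 library each, AF replicate 2 and AF replicate 1. The plot of members by library shows that the spread was small for Igf1, Jak2 and both Stat5 genes and wide for Igfals, Bcl6 and Cux2.

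**Figure D1:**
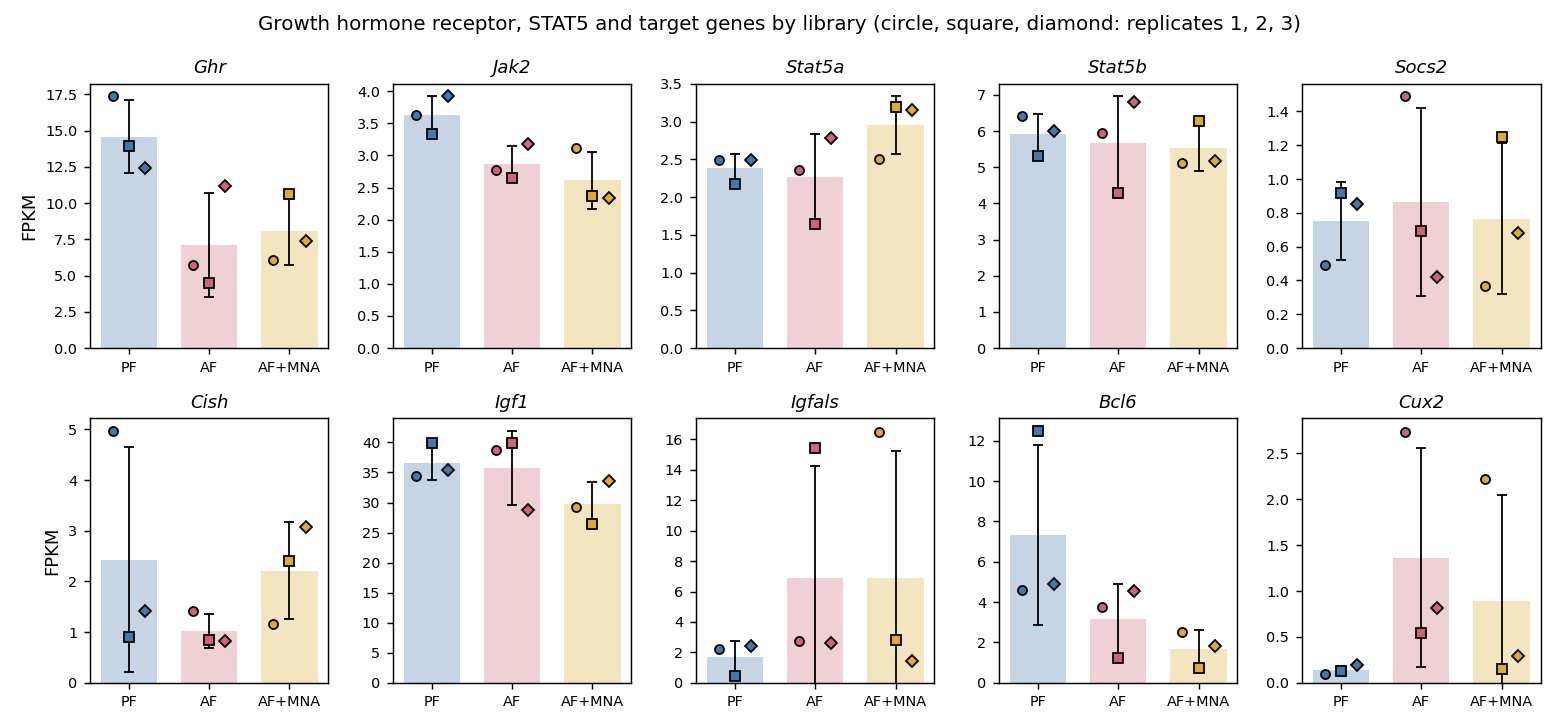
FPKM (vertical axis, linear from 0, own scale per gene) of the 10 genes in PF, AF and AF with MNA (AF+MNA); points are libraries, bars are group means and error bars are SD of n = 3, cut at 0. Ghr lies between 12.43 and 17.38 in PF and between 4.47 and 11.21 in AF, and Cux2 is at most 0.19 in PF but 0.54 to 2.73 in AF.

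Ghr, which encodes the growth hormone receptor and lies on chromosome 15 from 3317760 to 3583492 on the minus strand (GRCm38), fell with alcohol. Its level was 17.38, 13.98 and 12.43 FPKM in PF against 5.73, 4.47 and 11.21 in AF. Every AF library was below every PF library, but AF replicate 3, one of the libraries rich in intron signal, lay close to the lowest PF value. The mean went from 14.6 ± 2.53 to 7.14 ± 3.58 FPKM (SD, n = 3 each), a log2 ratio of -1.03 and only just past 2-fold. The coefficient on log2(FPKM + 1) was -1.01 with SE 0.31 and a 95% interval of -1.75 to -0.27 (limma, adjusted p = 0.31). Without AF replicate 3 the log2 ratio was -1.52. Leaving out PF replicate 1, AF replicate 1 or AF replicate 2 brought it to -0.89, -0.90 and -0.79, under 2-fold and so short of the threshold. In AF with MNA the libraries held 6.11, 10.64 and 7.40 FPKM, again all below PF. In bulk liver, fewer cells of a type and less RNA per cell cannot be told apart. The Ghr entry merges 21 transcripts, 15 of them assembled from these libraries, so that its FPKM is a sum over known and assembled forms.

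Jak2, the tyrosine kinase bound to the receptor (chromosome 19, 29251828 to 29313080, plus strand), showed a smaller difference. It measured 3.63, 3.33 and 3.92 FPKM in PF, 2.77, 2.65 and 3.18 in AF, and 3.12, 2.37 and 2.34 once MNA was added. Both alcohol groups lay wholly below PF. The AF to PF log2 ratio of -0.34 did not pass the test (limma, adjusted p = 0.469).

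The paired STAT5 genes lie next to each other on chromosome 11, Stat5b from 100780731 to 100850724 on the minus strand and Stat5a from 100859351 to 100885169 on the plus strand. Stat5b, the form that carries most of the growth hormone response in liver, was at 6.42, 5.31 and 6.01 FPKM in PF against 5.94, 4.28 and 6.81 in AF. Stat5a was at 2.49, 2.18 and 2.49 FPKM in PF against 2.36, 1.65 and 2.79 in AF. The groups overlapped for both genes. The difference on log2(FPKM + 1) was -0.07 for Stat5b (95% interval -0.48 to 0.35) and -0.07 for Stat5a (-0.45 to 0.32), so that a change of under about 0.5 on this scale in either direction was not detectable.

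STAT5 dimers bind the palindrome TTCNNNGAA, which reads the same on both strands. RefSeq promoter windows (GRCm38.p6, 250 bases before to 50 after the start) were at hand for 9 members, Socs2 being without an entry, and 5 of their 16 windows, in Cish, Bcl6 and Igfals, held the palindrome. Among all 32851 windows 8.3% held it. The stretches around it are given for 4 of these windows, with the palindrome in capitals. The first match began at the start itself in Cish and 58 bases before it in the printed Igfals window. In the Bcl6 windows the matches began 88 to 168 bases before the start. The fifth window, also of Igfals, held TTCTCAGAA 236 bases before another start and is not printed. A match is a description of the letters and not a binding site, and for the second Bcl6 stretch the start is inside the gene and its first bases were not found in a GENCODE M21 transcript.
Cish, chr9:107296654-107296683, plus strand: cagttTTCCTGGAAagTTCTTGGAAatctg
Bcl6, chr16:23988951-23988980, minus strand: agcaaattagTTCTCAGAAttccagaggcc
Bcl6, chr16:23981359-23981458, minus strand: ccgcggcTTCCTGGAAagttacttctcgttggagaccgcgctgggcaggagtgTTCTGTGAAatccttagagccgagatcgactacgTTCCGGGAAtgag
Igfals, chr17:24878163-24878192, plus strand: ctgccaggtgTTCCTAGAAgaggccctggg
Cish carried a pair of matches at and just after its start, and the inner Bcl6 window carried 3.

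Cish, an inhibitor of the SOCS family that STAT5 induces (chromosome 9, 107296026 to 107302784, plus strand), varied most in PF. It was at 4.97, 0.91 and 1.42 FPKM in PF, 1.41, 0.85 and 0.82 in AF, and 1.17, 2.41 and 3.07 once MNA was added. PF replicate 1 held the highest value, and without it PF and AF lay close together. The AF to PF log2 ratio of -1.24 did not pass the test (limma, adjusted p = 0.633). Socs2, the other feedback inhibitor (chromosome 10, 95385362 to 95417180, minus strand), was at 0.49, 0.92 and 0.85 FPKM in PF, 1.49, 0.69 and 0.42 in AF, and 0.37, 1.25 and 0.68 once MNA was added. Its groups overlapped in every comparison, and the AF to PF difference was 0.06 on log2(FPKM + 1) with an interval of -0.49 to 0.61.

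Igf1, the growth factor that liver secretes under growth hormone (chromosome 10, 87858265 to 87937042, plus strand), did not separate PF from AF. Its level was 34.48, 39.98 and 35.46 FPKM in PF against 38.72, 39.87 and 28.73 in AF, with means of 36.6 ± 2.93 and 35.8 ± 6.13 FPKM (SD, n = 3 each). The difference on log2(FPKM + 1) was -0.05 with an interval of -0.44 to 0.35. AF with MNA held 29.18, 26.48 and 33.65 FPKM, each below the lowest PF library, with a difference from PF of -0.29 that did not pass the test (limma, adjusted p = 0.369). Igf1 thus stayed within its spread in the comparison in which Ghr fell.

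Igfals encodes the acid-labile subunit that holds circulating IGF1 in a large complex (chromosome 17, 24865997 to 24882010, plus strand). It was at 2.20, 0.43 and 2.39 FPKM in PF, 2.75, 15.41 and 2.59 in AF, and 16.48, 2.79 and 1.44 once MNA was added. A single library made the mean of each alcohol group, AF replicate 2 and AF with MNA replicate 1. The AF to PF log2 ratio of 2.05 did not pass the test (limma, adjusted p = 0.51). The 3 genes of the same neighbourhood, looked up after these values were seen, did not have their highest value in either of those libraries. Nubp2 was at 12.51 and 11.8 FPKM there within 8.8 to 16.26 over all libraries, Hagh stayed within 13.68 to 21.97 and Spsb3 within 1.15 to 1.82 FPKM.

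Cux2, the female-biased homeobox factor (chromosome 5, 121856366 to 122050102, minus strand), rose with alcohol. It was at 0.10, 0.13 and 0.19 FPKM in PF, close to 0, and at 2.73, 0.54 and 0.82 FPKM in AF. Every AF library was above every PF library. The mean went from 0.14 ± 0.0458 to 1.36 ± 1.19 FPKM (SD, n = 3 each), a 9.74-fold ratio or 3.28 on the log2 scale. AF replicate 1 held the highest value, and without it the log2 ratio was 2.28 and the coefficient given next was 0.56. On log2(FPKM + 1), which understates changes of low genes, the difference was 0.94 with SE 0.32 and a 95% interval of 0.17 to 1.71 (limma, adjusted p = 0.357). The call was lost without PF replicate 1, without PF replicate 2 and with all 9 libraries in the fit, where the coefficient was 0.92, 0.93 and 0.94. In AF with MNA, replicate 1 held 2.22 FPKM and the others 0.15 and 0.29, inside or just above the PF range.

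Bcl6, the repressor that is higher in male liver and responds to fasting as well as to growth hormone (chromosome 16, 23965052 to 23988852, minus strand), was lower in both alcohol groups. It was at 4.60, 12.48 and 4.90 FPKM in PF, 3.74, 1.21 and 4.53 in AF, and 2.52, 0.72 and 1.84 once MNA was added. No library of either alcohol group reached the lowest PF value, although AF replicate 3 came within 0.07 FPKM of it. The mean was 7.33 ± 4.47 FPKM in PF and 3.16 ± 1.73 in AF (SD, n = 3 each), and this log2 ratio of -1.21 did not pass the test (limma, adjusted p = 0.478). Without PF replicate 2, which held the highest value, it was -0.59. In AF with MNA, at 1.69 ± 0.909 FPKM (SD, n = 3), Bcl6 fell against PF by 2.11 on the log2 scale of the means (limma, adjusted p = 0.216), and the call held with each of the 6 libraries left out in turn.

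Against PF, alcohol alone thus moved 2 of the 10 members past the threshold, Ghr down and Cux2 up, where 4.3% of all 12268 genes tested passed it. The same 2 had an unadjusted p under 0.05, against 11.7% of all genes, and none had an adjusted p under 0.05, against 0.326%. The libraries of the groups did not overlap for 5 members, Ghr, Jak2 and Bcl6 being lower and Igfals and Cux2 higher in AF, against 18.3% of all genes. The median coefficient of the members was -0.07 and that of all genes -0.03. With 3 libraries a group the smallest p of the exact permutation test of a single gene was 0.1. It is reached where the groups do not overlap, so that for these 5 members it adds nothing to that count. All 10 members passed the minimum of 0.5 FPKM mean in each comparison. Against PF, Cux2, at 0.14 FPKM in PF, met it only through the alcohol groups and so could be called only as higher there.

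**Figure D2:**
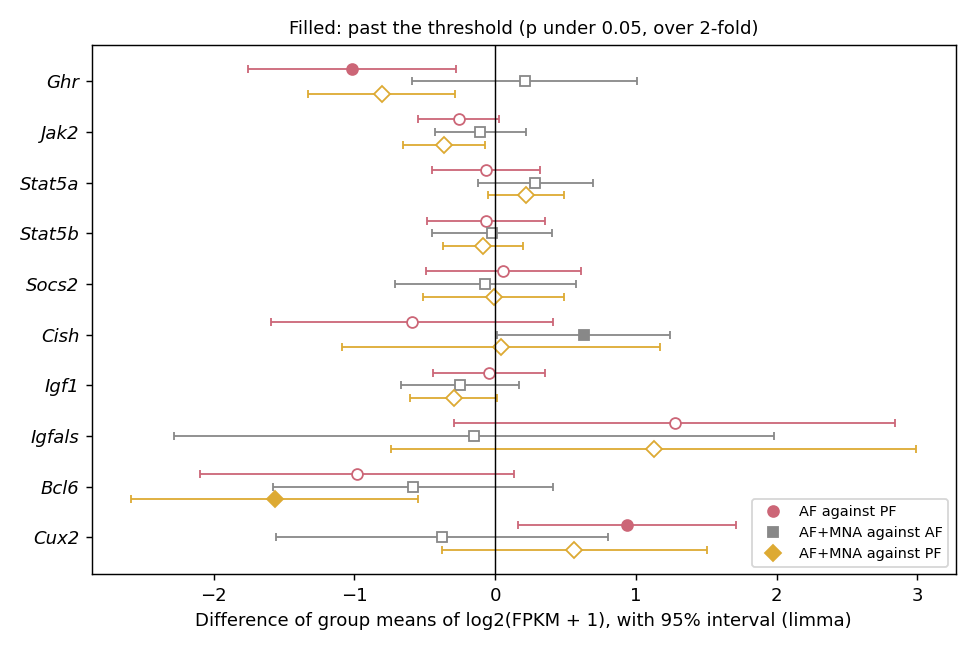
Difference of group means on log2(FPKM + 1) with its 95% interval (horizontal axis) for each of the 10 genes in 3 comparisons of 3 against 3 libraries; filled symbols passed the threshold. Ghr at -1.01 and Cux2 at 0.94 are filled for AF against PF, Cish at 0.63 for AF with MNA (AF+MNA) against AF, and Bcl6 at -1.57 for AF with MNA against PF.

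The comparison of AF with MNA against AF asks what the injected agent changed under the alcohol diet. Cish was the only member past the threshold, at 1.41, 0.85 and 0.82 FPKM without and 1.17, 2.41 and 3.07 FPKM with MNA. Replicate 1 of the MNA group lay below AF replicate 1, so that the groups overlapped. The mean was 2.16 times higher, and the difference on log2(FPKM + 1) was 0.63 with SE 0.26 and a 95% interval of 0.015 to 1.25 (limma, adjusted p = 0.94). This call was lost under most alternatives, among them equal medians in each library, all 9 libraries in the fit and leaving out AF replicate 2, AF replicate 3, or MNA replicate 2 or 3, where the coefficient was 0.57, 0.56, 0.56 and 0.44. Over all 12214 genes 1.98% passed the threshold, 5.22% had an unadjusted p under 0.05 and 0.0491% an adjusted p under 0.05, and of the members 1, 1 and 0 did so. No member had groups that did not overlap, against 10.1% of all genes. Ghr had a log2 ratio of 0.17 (limma, adjusted p = 0.989) and an interval of -0.59 to 1.01 on log2(FPKM + 1), and its groups overlapped. Stat5a was at 2.51, 3.19 and 3.16 FPKM with MNA, a log2 ratio to AF of 0.38 (limma, adjusted p = 0.965). Bcl6 had a log2 ratio of -0.90 (limma, adjusted p = 0.97) and passed the threshold without AF replicate 2, at -1.29.

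AF with MNA was also set against PF, a comparison that shares its libraries with the other 2. Bcl6 passed the threshold. Ghr missed the 2-fold limit at a log2 ratio of -0.86 (limma, adjusted p = 0.216), and passed it without AF with MNA replicate 2, at -1.11. Jak2 had a log2 ratio of -0.47 (limma, adjusted p = 0.277). Thus 1 of 10 members passed the threshold against 3.89% of 12276 genes, 3 had an unadjusted p under 0.05 against 14.5%, none an adjusted p under 0.05 against 0.432%, and 5 had groups that did not overlap against 21.4%. Ghr, Jak2, Igf1 and Bcl6 were the lower ones and Stat5a the higher. The median coefficient was -0.05 for the members and -0.02 for all genes.

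The sex-biased genes of the liver are the classical readout of how growth hormone acts there. Of 21 male-biased genes listed, 17 were tested in AF against PF and 11 fell, none rose, and all 17 coefficients were below 0, with a median of -1.92 against -0.03 over all genes. Adjusted over all genes 5 passed, and among all genes 4.3% passed the threshold and 0.326% the adjusted test. This list and the female-biased list were chosen with earlier results of these data known. The paper itself lists Elovl3, Mup3 and others of the male-biased genes as down with alcohol, so that these counts were not independent of those results. Elovl3, an elongase of very long fatty acids, was at 51.74, 42.49 and 27.97 FPKM in PF against 2.33, 3.99 and 2.46 in AF, a log2 ratio of -3.80 (limma adjusted p = 0.0073). Hsd3b5, a steroid dehydrogenase of male liver, was at 11.05, 27.64 and 13.29 FPKM in PF against 0.06, 0.17 and 0.13 in AF (log2 ratio -7.17, adjusted p = 0.00766). Mup3, a major urinary protein, was at 2147, 2893 and 2593 FPKM in PF against 284, 550 and 381 in AF (log2 ratio -2.65, adjusted p = 0.0211). The groups lay far apart for these 3. The urinary proteins and the Cyp and Hsd3b families have near-identical copies that can share reads, so that a value of one copy is uncertain. Without AF replicate 3 the count of male-biased genes that fell was 9.

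Of 27 female-biased genes listed, 16 were tested, and 9 rose and 1, Cyp2c69, fell. The median coefficient was 0.81 against -0.03 over all genes, and 3 passed adjusted over all genes. Among all genes 4.3% passed the threshold and 0.326% the adjusted test. Cyp2b13, a female-specific cytochrome P450, was listed at 0, 0.01 and 0 FPKM in PF and at 4.77, 5.48 and 7.36 FPKM in AF (limma adjusted p = 0.00263). Cyp2b10, which is also the standard target of the xenobiotic receptor CAR, was at 0.28, 0.22 and 3.33 FPKM in PF against 260, 195 and 133 in AF (log2 ratio 7.26, adjusted p = 0.0073). Cyp2a4, a steroid hydroxylase, was at 1.34, 1.22 and 1.66 FPKM in PF against 41.73, 18.88 and 22.36 in AF (log2 ratio 4.30, adjusted p = 0.00817). These 3 genes belong to the Cyp2a and Cyp2b families, which foreign compounds induce as well. Outside these families 12 genes were tested, of which 5 rose, 1 fell and 6 did not pass the threshold. Among them Cyp17a1, a steroidogenic P450, rose, with groups that overlapped, from 2.02, 5.38 and 7.75 to 22.93, 7.24 and 18.85 FPKM (log2 ratio 1.69, adjusted p = 0.359). Another 11 listed genes were below the filter or not found, among them Cyp3a41a, Cyp3a41b and Cyp3a16 at a mean of at most 0.01 FPKM. Genes near 0 in PF, such as Cyp2b13, met the filter only through AF and could be called only as higher. Without AF replicate 3 the count that rose was 8.

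**Figure D3:**
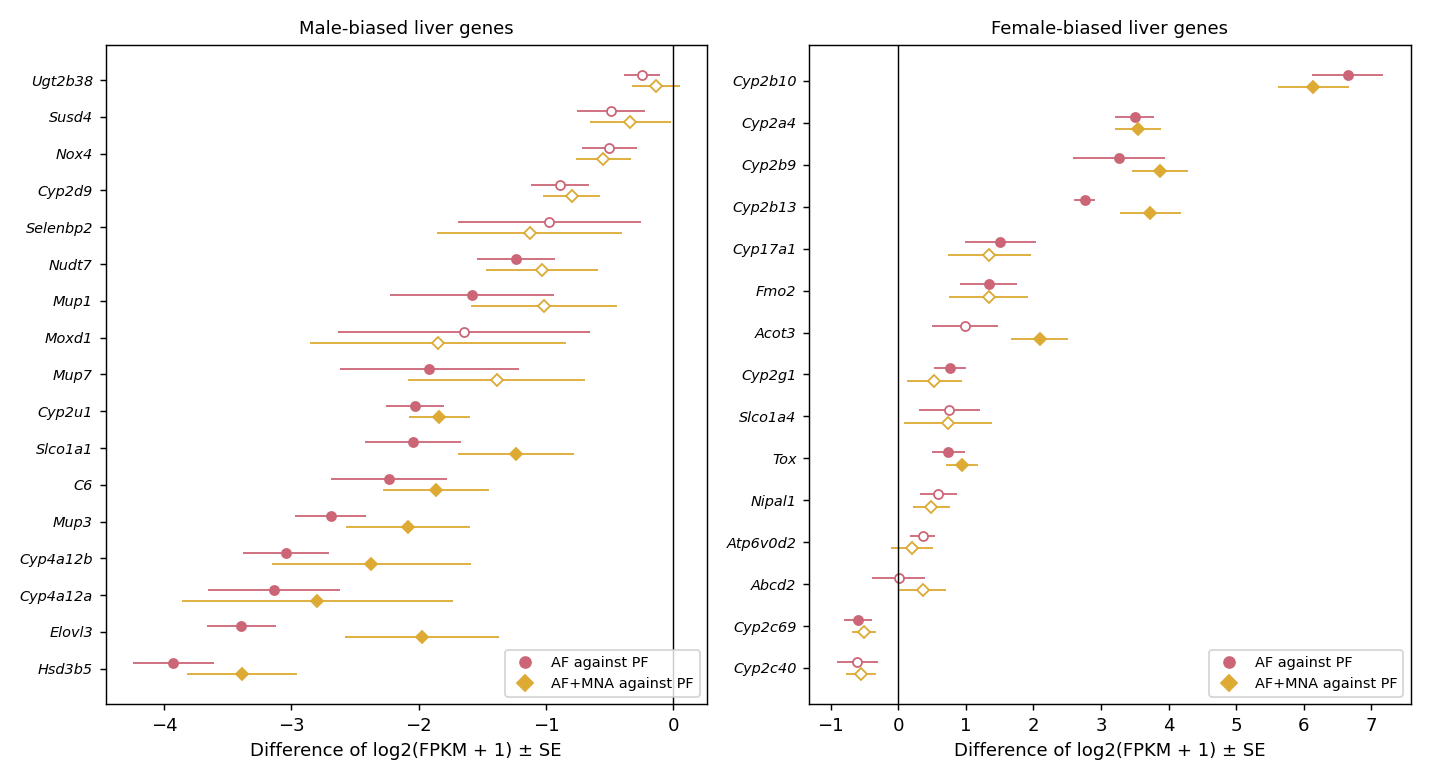
Difference from PF on log2(FPKM + 1) ± SE (horizontal axes) for tested male-biased (left) and female-biased (right) genes, in AF (circles) and AF with MNA (AF+MNA, diamonds), n = 3 libraries a group; filled symbols passed the threshold, and 1 female-biased gene is not shown. All 17 male-biased points lie below 0 in both comparisons, while the female-biased points run from -0.61 for Cyp2c40 to 6.65 for Cyp2b10 in AF.

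With MNA the male-biased genes still lay below PF, 8 of 17 past the threshold, and 6 of 16 female-biased genes above it, with 1 and 4 adjusted over all genes, where 3.89% of all genes passed the threshold and 0.432% the adjusted test. Without AF with MNA replicate 1 these counts were 7 and 6, and without PF replicate 1 the first was 5. Against AF, Elovl3 rose, at 2.93, 14.79 and 16.80 FPKM with MNA (log2 ratio 1.98, limma adjusted p = 0.94), and it was the 1 of 15 male-biased genes tested that did. Acot3, an acyl-CoA thioesterase, rose from 2.77, 3.19 and 7.19 to 9.26, 10.84 and 9.54 FPKM (log2 ratio 1.17, limma adjusted p = 0.94) and was the 1 of 17 female-biased genes, where 1.98% of all genes passed the threshold. The median coefficients of the lists in this comparison were 0.34 and 0.00083, against 0.01 over all genes.

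The libraries within a group were not alike in these genes. AF replicate 1 was the lowest of its group for 14 of the 17 male-biased genes, and so was AF with MNA replicate 1 for 14. These were also the libraries with the highest Cux2, 2.73 and 2.22 FPKM. Mup7 was at 586 FPKM in AF replicate 1 against 4374 and 1172 in the other two, and at 668 FPKM in AF with MNA replicate 1 against 3543 and 3824. Of the 16 female-biased genes AF with MNA replicate 1 was the highest of its group for 14. AF replicate 1 was the highest of its group for 8 and the lowest for 4, and AF replicate 3 was the highest for 7. In AF with MNA, Cyp17a1 was at 31.85 FPKM in replicate 1 and at 7.52 and 8.98 in replicates 2 and 3, as Cux2 was at 2.22, 0.15 and 0.29. In PF, replicate 2 was the highest for 15 of the 17 male-biased genes and also held the highest Bcl6, 12.48 FPKM. Bcl6 did not follow these genes in the alcohol groups. AF replicate 2 was the highest of its group for 14 of the 17 male-biased genes and AF with MNA replicate 2 for 8, and these libraries held the lowest Bcl6 of their groups, 1.21 and 0.72 FPKM. These patterns were noticed in the values and are given as a description of 9 libraries, and AF with MNA replicate 1 is one of those rich in intron signal. The same counts over all genes were not made, and copies of a family can share reads. The heat map of these genes by library shows the same.

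**Figure D4:**
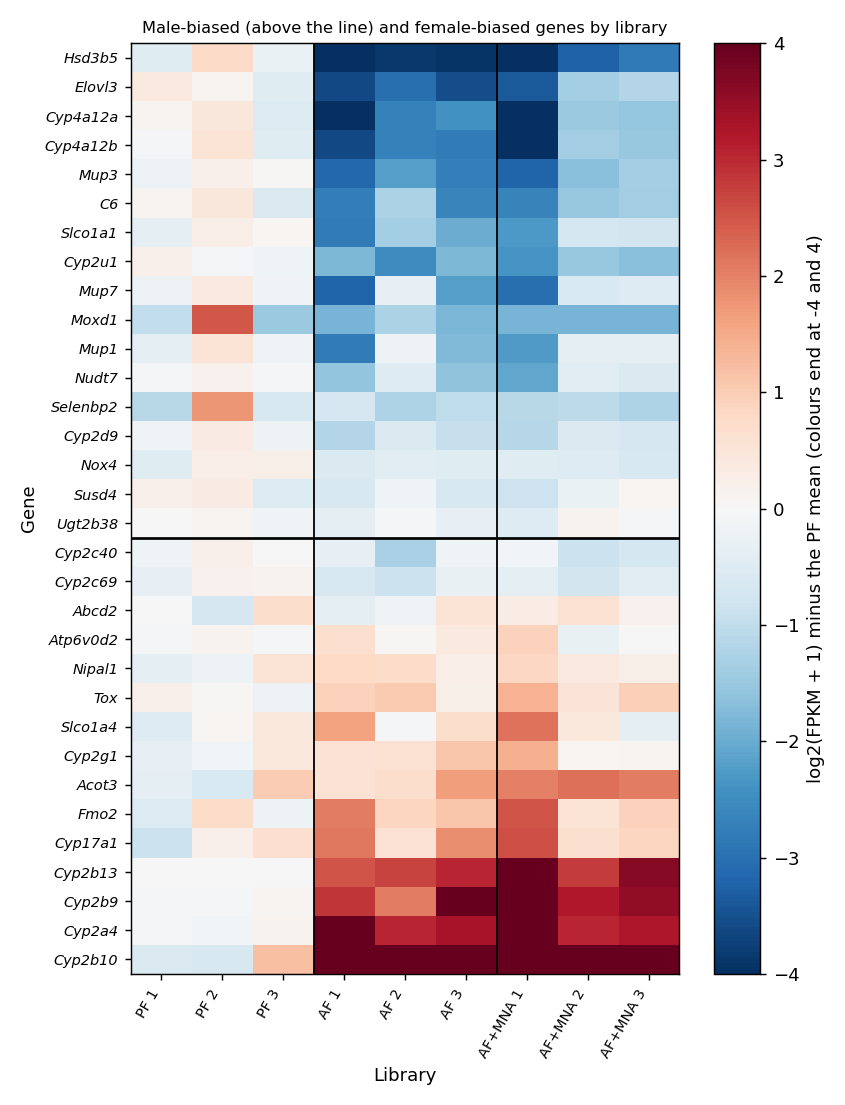
Each library's log2(FPKM + 1) minus the PF mean (colour scale, ending at -4 and 4) for the tested male-biased genes (above the horizontal line) and female-biased genes (below it, 1 not shown); columns are the 9 libraries (AF+MNA is AF with MNA). AF replicate 1 and AF+MNA replicate 1 are the lowest of their groups for 14 of 17 male-biased genes each, and AF+MNA replicates 2 and 3 are paler.

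Among 15 tested partners and regulators of the receptor none passed the threshold in any comparison. Of all genes 4.3% did in AF against PF, 1.98% in AF with MNA against AF and 3.89% in AF with MNA against PF, so that none of 15 is near the share over all genes. The phosphatase Ptpn6 had a log2 ratio of -0.53 in AF against PF and Socs7, another SOCS family member, of -0.33 (limma, adjusted p = 0.488 and adjusted p = 0.557). The phosphatase Ptpn11 was at 9.27, 9.60 and 8.72 FPKM in AF and 3.51, 10.72 and 4.07 with MNA (log2 ratio -0.59, adjusted p = 0.953). Socs1 and Sh2b2 were under the filter, and Shc1 and Prlr were not found by symbol.

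Of the 15 genes of the IGF axis 9 were tested in AF against PF and 1 passed the threshold, against 4.3% of all genes. Igfbp5, an IGF-binding protein, fell from 1.25, 2.68 and 1.34 to 0.53, 1.05 and 0.88 FPKM (log2 ratio -1.10, limma adjusted p = 0.404). Igfbp1, the binding protein that insulin suppresses, was at 8.27, 14.58 and 7.99 FPKM in PF against 36.62, 161.03 and 12.58 in AF, overlapping and not past the test (limma, adjusted p = 0.431). Its highest value stood in AF replicate 2, a library in which Igfals was also high. In AF with MNA replicate 1, where Igfals was highest at 16.48 FPKM, Igfbp1 was at 18.46 FPKM, between 15.94 and 25.5 in replicates 3 and 2. Igf1r, the IGF1 receptor, was at 0.447 and 0.59 FPKM on average in PF and AF (adjusted p = 0.728). Igfbp2 averaged 99.1 FPKM in AF and 63.7 FPKM with MNA (adjusted p = 0.961). None of the axis passed the threshold in the other 2 comparisons, with 9 tested against AF and 8 against PF, where 1.98% and 3.89% of all genes did.

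Of 11 other growth hormone or STAT5 responsive genes, 2 passed the threshold in AF against PF, 2 in AF with MNA against AF and 4 in AF with MNA against PF, where 4.3%, 1.98% and 3.89% of all genes did. With alcohol alone Onecut1, a hepatocyte transcription factor, fell from 3.64, 2.25 and 6.71 to 1.58, 1.19 and 1.31 FPKM (log2 ratio -1.63, limma adjusted p = 0.293). Id1, an inhibitor of helix-loop-helix factors, rose from 1.06, 1.59 and 3.36 to 9.71, 2.73 and 5.38 FPKM (log2 ratio 1.57, adjusted p = 0.39). Egfr, the epidermal growth factor receptor, was at 22.01, 21.06 and 24.15 FPKM in PF against 15.23, 18.24 and 10.29 in AF, which missed the 2-fold limit (log2 ratio -0.62, adjusted p = 0.356). With MNA it was at 6.44, 11.84 and 13.82 FPKM and had fallen against PF (log2 ratio -1.07, adjusted p = 0.188). Onecut1 was at 0.85, 3.45 and 6.86 FPKM with MNA, replicate 2 lying within the PF range and replicate 3 just above it. Bcl2l1, a survival gene that STAT5 can induce, fell against AF, from 6.34, 7.29 and 6.26 to 2.29, 2.94 and 0.11 FPKM (log2 ratio -1.90, adjusted p = 0.94), but was at 4.37, 4.02 and 0.35 FPKM in PF. The immediate-early gene Egr1 rose against AF (log2 ratio 1.21, adjusted p = 0.94), and Myc, Cdkn1a and Id1 rose against PF in AF with MNA.

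Loss of growth hormone signalling is known to go with higher levels of lipid uptake genes, and 4 of 6 such genes were tested against PF. None passed the threshold in AF and 2 did in AF with MNA, against 4.3% and 3.89% of all genes. Cd36, a fatty acid transporter, was at 5.98, 3.69 and 6.17 FPKM in PF, 6.67, 13.25 and 10.14 in AF, and 14.16, 11.57 and 14.38 with MNA. Its groups did not overlap between PF and AF, as for 18.3% of all genes, and differed by just under 2-fold (log2 ratio 0.92, limma adjusted p = 0.359), and it rose in AF with MNA against PF (log2 ratio 1.34, adjusted p = 0.0907). Cidec, a lipid droplet protein, also rose there, from 0.33, 0.50 and 0.53 to 0.89, 0.78 and 1.67 FPKM (adjusted p = 0.283). Pparg, a lipogenic nuclear receptor, was at 1.55, 1.08 and 1.22 FPKM in PF against 1.88, 1.76 and 1.60 in AF (log2 ratio 0.44, adjusted p = 0.473).

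The genes whose log2(FPKM + 1) followed a member most closely over the 9 libraries were taken from 12238 genes, with Pearson's r as a description. For Ghr these were Fbxl19 (r = 0.97) and the non-coding gene 1700023H06Rik (r = 0.97), the latter at 12.96, 8.91 and 12.53 FPKM in PF, 1.71, 1.12 and 6.42 in AF, and 2.79, 5.43 and 3.92 with MNA. Its AF replicate 3 was high in the same way as that of Ghr. For Cux2 they were Slc6a8 and Samd4 (both r = 0.97), which had their highest values in AF replicate 1 and AF with MNA replicate 1. For Cish they were Phlda1 (r = 0.97) and Crb3 (r = 0.96), and Phlda1 was at 57.77 FPKM in PF replicate 1 against 12 to 32.62 elsewhere. The closest were Dhx40 and Gtf2a2 for Igf1 (r = 0.94 and 0.93), Psmc4 and Timm8a1 for Socs2 (r = 0.95 and 0.94), and Ldb1 and B930025P03Rik for Bcl6 (r = 0.94 for both). Points share library and depth, and a maximum over so many genes is high by selection.

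Other RNAs of the same loci were sparse. Back-splice junction reads, which mark circular RNAs, came to 16 of 17959 for the members. They fell on 5 of 4486 circRNAs. Ghr gave 3, joining its exons 4 to 8 (2 reads), 2 to 8 (5 reads) and 2 to 7 (2 reads) of a known transcript, Jak2 1 joining exons 7 to 15 (5 reads, all in PF replicate 3), and Bcl6 1 inside an intron (2 reads). Such counts do not allow a comparison of groups. Gm17041, a long non-coding RNA on the opposite strand inside Cish, was at 13.6, 1.43 and 8.23 FPKM in PF, 3.53, 1.07 and 2.86 in AF, and 3.67, 5.57 and 6.55 with MNA, so that PF replicate 1 was highest and replicate 2 of PF and of AF lowest of their groups. Cish had its highest value in the same library. Igf1os, antisense to Igf1, was at 1.12, 0.315 and 0.640 FPKM in PF, 0.592, 0.629 and 0.948 in AF, and 0.551, 1.73 and 1.79 with MNA.

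The 6 entries of assembled transcripts only, each of 1 transcript, belonged to Jak2, Stat5a, Igf1, Bcl6 and, with 2, to Cux2. That of Bcl6 was at 1.12, 0.38 and 5.05 FPKM in PF, 0.96, 1.07 and 3.57 in AF, and 2.57, 4.08 and 2.87 with MNA, an order unlike that of the known Bcl6 transcripts. One of the Cux2 entries was at 0.12, 0.10 and 0 FPKM in PF, 1.62, 0.60 and 0 in AF, and 1.60, 0.98 and 1.61 with MNA, and the other was listed at 3.05 FPKM in AF with MNA replicate 1 and at most 0.48 elsewhere. The Stat5a entry reached 2.31 FPKM in PF replicate 2, the Jak2 entry 1.93 FPKM in AF with MNA replicate 2, and the Igf1 entry was above 0 only in PF replicate 1, at 2.11 FPKM.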

How the data were processed

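Liver RNA depleted of ribosomal RNA was sequenced from both ends with strand-specific libraries in 9 samples, 3 each of PF, AF and AF with MNA. FPKM of genes and lncRNA transcripts was computed by the authors with StringTie (1.3.4 in the submitters' processing notes, which also name cutadapt 1.9, HISAT2, TopHat, edgeR and FastQC without roles) and gene values are rounded to 2 decimals. The circRNA count values were deposited as raw junction reads, and the deposited normalized junction signal is that count over a constant of the library, from which total reads were recovered with a read length of 150. The genome build is not given in the sources used here, and coordinates matched GRCm38 (GENCODE M21). The tables give no gene counts, so precision was judged from replicates.

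Values were analysed as log2(FPKM + 1) for named entries with a known transcript and a mean of at least 0.5 FPKM in the 6 libraries compared, with limma 3.58.1 (lmFit, eBayes with trend, two-sided, Benjamini-Hochberg over all genes tested), R 4.3.3, Python 3.11.15 and pandas 2.3.3. The fit was tested on simulated data. The fold change was the log2 ratio of mean FPKMs. The methods name Ballgown, and limma took its place. Fold changes on log2(FPKM + 1) understate low genes. Alternatives were a pseudocount of 0.1, equal medians, no trend, all 9 libraries, a replicate block, other minimum levels, the limma coefficient as the fold change and each library left out.

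The members and lists were chosen with earlier results of these data known, and no test over a list was made. All members were named, and from each list the 3 genes of lowest p in AF against PF and the 1 in AF with MNA against AF. Other genes named (Mup7, Cyp17a1, Cyp2c69, Cyp2c40, Egr1, Myc, Cdkn1a, Alas2, Hbb-bs, Tat, Marco, the neighbours of Igfals) were chosen after their values were seen. For likeness the 2 genes of highest r were named. Values of 2 genes of the lists are not reported here, though the counts include them. A comparison of protein sequences was planned and not run.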

Additional observations from a re-analysis of the deposited data

How the results depend on the processing

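The values in this paragraph are the number of genes past the threshold or, for a member, limma's coefficient on log2(FPKM + 1). In AF against PF, 527 genes passed the threshold, 1183 with any value above 0, 265 above a mean of 2 FPKM and 249 with the coefficient as the fold change. The corresponding numbers were 242, 675, 81 and 99 in AF with MNA against AF, and 477, 1104, 228 and 229 in AF with MNA against PF. Leaving out 1 library gave 523 to 765, 209 to 367 (367 without AF replicate 3) and 463 to 540. The members past the threshold in AF against PF were 2, and 1 with all 9 libraries, above a mean of 2 FPKM or with the coefficient as the fold change, and 0 to 2 with 1 library left out. For AF with MNA against AF they were 1, and 0 with equal medians, all 9 libraries, the replicate block, any value above 0, a mean above 2 FPKM or the coefficient as the fold change, and 0 to 1 with 1 library left out. Against PF they were 1, and 1 to 2 with 1 library left out. The male-biased genes that fell and the female-biased genes that rose numbered 9 to 12 and 6 to 10 in AF against PF, and 5 to 9 and 6 to 8 in AF with MNA against PF, with 1 library left out. These counts over lists and members were added after the data were seen. The lower counts at 2 FPKM come with fewer genes tested, and otherwise the cause was not tested.

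With 1 library left out, coefficients that crossed 0 ranged in AF against PF from -0.18 to 0.077 for Stat5a, -0.19 to 0.094 for Stat5b, -0.17 to 0.24 for Socs2 and -0.13 to 0.10 for Igf1. In AF with MNA against AF they ranged from -0.033 to 0.55 for Ghr, -0.18 to 0.10 for Stat5b, -0.26 to 0.16 for Socs2, -0.99 to 0.57 for Igfals and -0.84 to 0.0086 for Cux2. Against PF they ranged from -0.20 to 0.16 for Socs2 and -0.29 to 0.53 for Cish, and Socs2 was 0.0021 with equal medians. None of these had passed the test.

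Same-numbered libraries of different groups deviated from their group means with correlations of -0.08 to 0.06, against -0.12 to 0.10 for libraries of different numbers. No likeness by replicate number was seen, but such correlations cannot show whether the animals were paired. With the replicate block the counts past the threshold were 562, 260 and 488. The coefficient of Cish in AF with MNA against AF stayed 0.63 and was no longer past the threshold, and no other call of a member was lost.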

Other observations

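Of 27 marker genes of liver and blood cells tested, 3 passed the threshold in AF against PF, against 4.3% of all genes, and they are given here as values. Alas2, the first enzyme of haem synthesis in erythroid cells, fell from 37.22, 43.33 and 41.38 FPKM in PF to 6.66, 18.21 and 8.71 in AF (log2 ratio -1.86, limma adjusted p = 0.108). The other erythroid marker tested, Hbb-bs, had a log2 ratio of 0.43 and did not pass the threshold. With MNA Alas2 was at 7.54, 24.68 and 22.01 FPKM, so that replicate 1 of both alcohol groups held the lowest value, as it did for Mup7. Tat, tyrosine aminotransferase of hepatocytes, rose from 114.89, 241.26 and 136.59 to 386.93, 581.14 and 197.15 FPKM in AF (log2 ratio 1.24, adjusted p = 0.393). Marco, a scavenger receptor of macrophages, rose from 1.05, 0.80 and 0.56 to 1.86, 2.77 and 1.10 FPKM in AF (log2 ratio 1.25, adjusted p = 0.365). It was the 1 of 6 macrophage markers with a coefficient above 0, and the other 5, none past the threshold, lay below 0.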
